A study of Mus musculus with 5 samples.

Results

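The subtelomeric ends of the mouse autosomes were taken as the last 2 Mb of chromosomes 1 to 19, counted back from the highest base with a CpG call on that chromosome in any of 5 sperm methylomes. They held 1575 of the 134735 tiles measured in the genome, a tile being 1000 bp with at least 3 CpGs that had 10 or more reads in all 5 libraries. The rest of the same chromosomes held 128850 tiles. These include the first 2 Mb of each, the opposite, centromere-proximal end (2113 tiles), which is also compared on its own. Methylation was read by whole-genome bisulfite sequencing of genomic DNA from sperm that swam out of the cauda epididymis of C57BL/6 mice, in 3 libraries of mice aged 2 months (young replicates 1 to 3) and 2 libraries of mice aged 18 months (old replicates 1 and 2). No genetic change or treatment is given for either group, and the labels do not tie libraries to separate animals, so the p-values given here speak of the spread among 5 libraries alone.

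Mouse chromosomes carry their centromere close to one tip, so that numbering runs from the centromere towards the far telomere, and the ends examined here lie next to that far telomere. The telomere itself is an array of TTAGGG repeats bound by the shelterin proteins, and the adjoining subtelomere is a mixture of unique genes, gene families and repeats that, in somatic cells, is usually rich in methylated CpGs. Mature sperm carry high CpG methylation over most of the genome, laid down before birth in the male germ line, while CpG-rich promoters stay unmethylated. The calls end where the assembled and covered sequence ends, so the telomere repeats were not measured.

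The autosomal ends together spanned 38 Mb with 161441 listed CpGs, of which 11916 (7.38%) met the read minimum, close to the 7.36% in the rest of the autosomes. Measured tiles were sparser at the ends, with 41.4 per Mb, against 54.5 per Mb elsewhere. Depth was alike in both places: the median tile had 117 to 163 reads per library at the ends and 115 to 160 in the rest. Marker regions did not settle purity, and no region of the 4 epididymal genes or of the 3 paternally methylated loci was measured. The 5 measured of 9 maternally imprinted loci, listed as unmethylated in sperm, read 31.7% to 40.1% across libraries, over windows wider than their control regions. The 4 measured of 7 germline gene promoters, listed as methylated in somatic cells, read 43.8% to 66.2%, and young replicate 3 was the highest library in both lists. Neither list thus read as unmethylated, and the part of other cells or of the windows in this was not tested. Of 3 leukocyte genes 1 (Ptprc) was measured, so the share of other cells was not measured.

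Promoters within the ends show both extremes of sperm methylation, and 6 are printed from the RefSeq sequence of GRCm38.p6, from 250 bases before to 50 bases after the transcript start. Each is written 5′ to 3′ on the gene's strand, and capitals mark every CG, the dinucleotide that is methylated. The first 3 were almost unmethylated, the fourth is a dense CpG cluster that was almost fully methylated, the fifth was intermediate, and the last is a CpG-poor promoter of an olfactory receptor that was highly methylated.
Fgf10, chr13:118714449-118714748, plus strand: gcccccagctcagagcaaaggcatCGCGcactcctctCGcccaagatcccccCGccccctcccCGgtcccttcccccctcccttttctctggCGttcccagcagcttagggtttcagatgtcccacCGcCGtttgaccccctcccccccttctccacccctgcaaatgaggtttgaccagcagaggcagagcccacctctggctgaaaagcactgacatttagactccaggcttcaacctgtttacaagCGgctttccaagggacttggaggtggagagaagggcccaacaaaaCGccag
Tpcn2, chr7:145283962-145284261, minus strand: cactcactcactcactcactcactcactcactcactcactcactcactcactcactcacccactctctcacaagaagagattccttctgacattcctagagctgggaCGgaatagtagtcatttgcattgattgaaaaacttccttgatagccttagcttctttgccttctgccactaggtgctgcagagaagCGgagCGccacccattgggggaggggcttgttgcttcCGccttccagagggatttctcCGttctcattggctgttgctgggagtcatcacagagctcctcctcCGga
Nploc4, chr11:120437651-120437950, minus strand: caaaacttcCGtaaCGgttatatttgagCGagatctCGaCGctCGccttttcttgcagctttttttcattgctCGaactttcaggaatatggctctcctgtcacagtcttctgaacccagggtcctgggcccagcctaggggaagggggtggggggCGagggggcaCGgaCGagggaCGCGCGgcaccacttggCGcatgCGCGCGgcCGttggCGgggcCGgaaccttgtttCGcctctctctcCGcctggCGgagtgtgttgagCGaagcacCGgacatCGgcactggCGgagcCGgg
Tmem267, chr13:119488223-119488522, plus strand: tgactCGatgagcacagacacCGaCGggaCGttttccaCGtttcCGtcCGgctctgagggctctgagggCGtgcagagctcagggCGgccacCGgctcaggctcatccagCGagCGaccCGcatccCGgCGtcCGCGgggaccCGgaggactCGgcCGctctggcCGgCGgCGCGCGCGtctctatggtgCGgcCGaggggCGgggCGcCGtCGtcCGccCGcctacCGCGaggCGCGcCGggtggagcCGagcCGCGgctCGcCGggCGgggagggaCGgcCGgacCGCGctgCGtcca
Dgka, chr10:128745035-128745334, minus strand: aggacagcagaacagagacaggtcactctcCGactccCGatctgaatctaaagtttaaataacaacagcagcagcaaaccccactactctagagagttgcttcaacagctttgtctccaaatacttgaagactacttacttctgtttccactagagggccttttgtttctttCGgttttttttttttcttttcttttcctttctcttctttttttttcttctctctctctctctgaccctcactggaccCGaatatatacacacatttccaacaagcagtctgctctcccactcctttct
Olfr774, chr10:129237901-129238200, plus strand: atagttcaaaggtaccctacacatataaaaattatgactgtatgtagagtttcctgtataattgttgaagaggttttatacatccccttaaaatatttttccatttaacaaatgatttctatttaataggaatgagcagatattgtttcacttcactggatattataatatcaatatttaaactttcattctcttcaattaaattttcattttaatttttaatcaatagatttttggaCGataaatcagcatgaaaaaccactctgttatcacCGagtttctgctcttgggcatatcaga

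The Fgf10 promoter, which drives a growth factor needed for lung and limb buds, holds 10 CpGs, and the 4 that were measured read 6.90%, 0% and 0% in the 3 young libraries (replicates 1 to 3, in this order and before the old libraries throughout) and 0% and 2.78% in the 2 old ones. The Tpcn2 promoter, of an endolysosomal ion channel, holds 6 CpGs, all measured, at 0%, 1.43% and 0.735% in young and 0.813% and 0.752% in old sperm. The Nploc4 promoter, of a cofactor of the VCP segregase, holds 28 CpGs, and the 6 measured read 0.870%, 0% and 0% in young and 2.65% and 0.962% in old sperm. All 3 therefore lay under 7% in every library, over totals of 29 to 140 reads per library. The Dgka promoter, of a diacylglycerol kinase, holds 4 CpGs and lay between the extremes, at 33.1%, 42.8% and 36.8% in young and 39.9% and 35.2% in old sperm. The Olfr774 promoter, of an odorant receptor, holds 2 CpGs that read 96.6%, 97.1% and 93.8% in young and 90.5% and 93.8% in old sperm, with overlapping groups.

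The Tmem267 promoter stood apart from other CpG-dense promoters of the ends. Of its 50 CpGs, 47 were measured, and they read 98.6%, 98.2% and 99.1% in young and 98.8% and 98.9% in old sperm. The gene 3110070M22Rik starts on the opposite strand, and its overlapping window, with 48 CpGs, read 98.7% ± 0.310 in the young libraries (SD, n = 3), while the old ones read 99.0% ± 0.0639 (SD, n = 2). The reads per CpG were 415 to 535 across libraries in the Tmem267 window, whereas the mean over the subtelomeric tiles was 36.2 to 47.2. The part of this depth in the result was not tested. Reads that align here from other copies of the sequence cannot be told apart from reads of the locus.

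Across the ends, 688 RefSeq promoter windows belonged to 569 genes. They carried slightly more CpGs than windows elsewhere on the autosomes, with a mean of 14.2 CpGs against 12.6, and 39.8% of them held 15 or more CpGs, against 35.1%. The telomere hexamer TTAGGG, searched on both strands (CCCTAA on the other), occurred in 73 windows of the ends (10.6%) and in 10.6% of windows elsewhere, and 1 of them is the Fgf10 window printed above. Only 18 windows of the ends (2.62%) had at least 2 CpGs covered in all libraries, against 2.92% of windows elsewhere on the autosomes. With any listed CpG and at least 10 reads per library counted, 24 windows were measured, of which 8 (33.3%) lay under 20% and 11 (45.8%) at 80% or more. Those 11 include both overlapping windows of Tmem267 and 3110070M22Rik. Elsewhere on the autosomes 1236 were measured, with 25.5% under 20% and 51.5% at 80% or more.

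Among those 24, the mean per library ranged from 54.2% to 57.4% in young and from 53.8% to 57.2% in old sperm (old minus young -0.379 points, two-sided exact permutation test, p = 0.7, n = 3 and 2). Further unmethylated promoters were those of Stard13, which read 0% in all young libraries and 1.16% and 0% in old, and of Depdc1a, a regulator of cell division, which read 0% to 1.96% in any library. The 5 measured windows with 15 or more CpGs had a median of 0.980%, the 19 poorer windows one of 77.5%. A quasi-binomial model with dispersion moderated as in limma and Benjamini-Hochberg adjustment called 0 (0%) of all 927 windows measured over the same CpGs. At an unadjusted p under 0.05 stood 12 of them (1.29%) and 0 of the 18 in the ends.

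**Figure D1:**
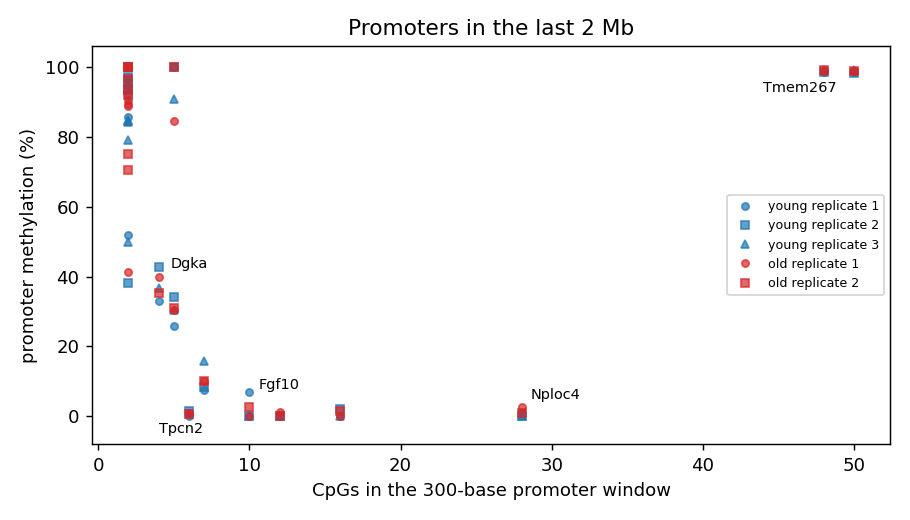
Methylation (%) of the 18 promoter windows of the autosomal ends measured over the same CpGs in every library, against the number of CpGs in the 300-base window; blue points are young and red points old libraries. Windows with 6 to 28 CpGs lie low, Tmem267 and its neighbour with 48 and 50 CpGs lie near 99%, and windows with 2 CpGs are mostly high.

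As a whole the ends were highly methylated, and slightly less so than the rest of the autosomes in every library. The mean over subtelomeric tiles was 88.4%, 88.6% and 87.8% in the young libraries and 88.5% and 88.3% in the old. The rest of the autosomes read 89.7%, 89.8% and 89.0% in young and 89.7% and 89.6% in old sperm. Young replicate 3 had the lowest mean in both places, but was not low at every level. Among subtelomeric tiles pooled at 20% to 40% it was the highest library, at 37.8% against 26.1% to 31.9%. Among those at 40% to 60% it was again the highest, at 54.9% against 44.0% to 50.2%. Over all tiles, the end was lower by a similar amount in each library, with differences of -1.26, -1.27 and -1.20 points in young and -1.23 and -1.33 in old sperm.

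The mean of these 5 differences was -1.26 points ± 0.0462 (SD, n = 5). All 5 libraries were lower at the ends, which in the two-sided exact sign-flip permutation test gave p = 0.062, the smallest value 5 libraries allow. The libraries read the same tiles, so this p and SD do not measure the spread among chromosome ends. Of 19 ends, 10 were lower and 8 higher than the rest of their chromosome in all 5 libraries. The size of the mean difference depended on which tiles and chromosomes were counted: it was -2.09 for the last 1 Mb, -0.696 with every chromosome weighing the same, -0.812 without chromosome 15, -0.690 among tiles at 80% or more and -0.585 among tiles over 1000 bp from any annotated gene end. It stayed below 0 in all of these, and lay between -1.27 and -1.24 with any 1 library left out.

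The ends held fewer of the most methylated tiles than the rest. At 95% or more stood 602 subtelomeric tiles (38.2%), against 45.3% of tiles in the rest of the autosomes. The classes from 60% to 80% and from 80% to 90% were fuller at the ends, with 9.02% against 7.27% and 18.6% against 14%. Under 20% lay 22 tiles (1.4%), against 0.890% elsewhere. Counted within each library, the share at 95% or more was 42.6%, 45.8% and 30.7% at the ends in young and 39.9% and 38.6% in old sperm, and 48.2%, 52.4% and 37.2%, then 46.4% and 45.2%, in the rest. The mean difference in this share, ends minus rest, was -6.35 percentage points (SD 0.412, n = 5 libraries, exact sign-flip permutation test, p = 0.062, the smallest possible).

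**Figure D2:**
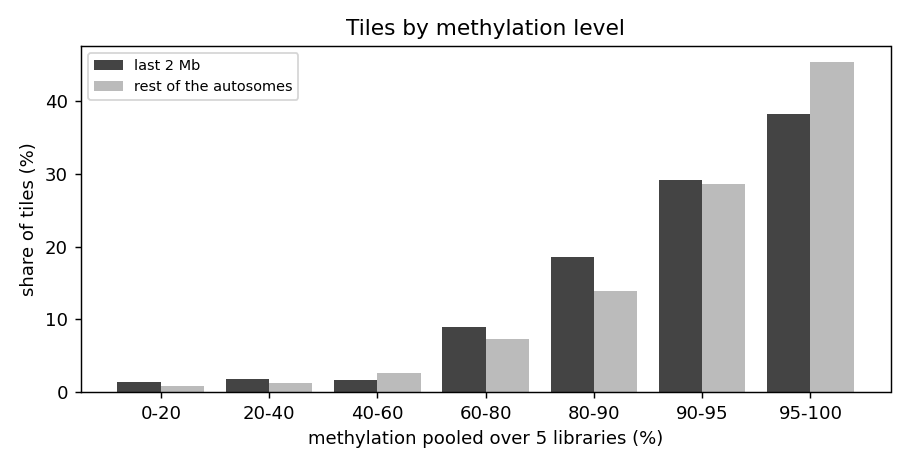
Share of tiles (%) in each class of methylation level, pooled over the 5 libraries, in the last 2 Mb of the autosomes (dark bars, 1575 tiles) and in the rest of them (light bars, 128850 tiles). The ends have fewer tiles in the class from 95% to 100% and more in the classes from 60% to 90%.

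Position relative to genes separated the subtelomeric tiles further. Tiles within 1000 bp of an annotated gene start or end numbered 129 (8.19% of the ends, against 5.30% of the rest) and averaged 73.0%, against 77.1% elsewhere, a difference of -4.15 points (SD 0.391, n = 5). Tiles inside genes and farther from their ends numbered 604 and averaged 91.5%, against 91.9% (-0.386 points, SD 0.0467). Tiles between genes numbered 842 and averaged 88.3%, against 89.0% (-0.705 points, SD 0.0710). Each of the 3 differences had the same sign in all 5 libraries (exact sign-flip permutation test, p = 0.062 each, the smallest possible).

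By number of measured CpGs, the ends were lower in 4 of 5 classes and higher in the densest. The 671 tiles with 3 CpGs averaged 89.9%, against 90.5% in the rest, and the 169 tiles with 7 to 10 CpGs averaged 83.4%, against 87.2%. The 38 tiles with 11 or more CpGs averaged 80.2% at the ends and 77.8% elsewhere, higher by 2.35 points (SD 0.890, n = 5).

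The 19 ends differed far more among themselves than the libraries did. Of them 10 were less methylated than the rest of their chromosome in all 5 libraries, 8 were more methylated in all 5, and the end of chromosome 14 was lower in 2 of 5 libraries (0.144 points, SD 0.393). The end means ran from 83.0% on chromosome 15 to 93.9% on chromosome 19, with a median of 89.3% and an SD over ends of 2.96 points. The other 1186 windows of 2 Mb along the autosomes had an SD of 3.98 points around a mean of 89.6%, so the spread among ends was no wider than that among windows elsewhere. The pattern recurred across libraries: over the 19 chromosomes the end minus rest values of any 2 libraries correlated with a Pearson r of 0.954 to 0.984, a description of points that share their sequence and coverage.

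**Figure D3:**
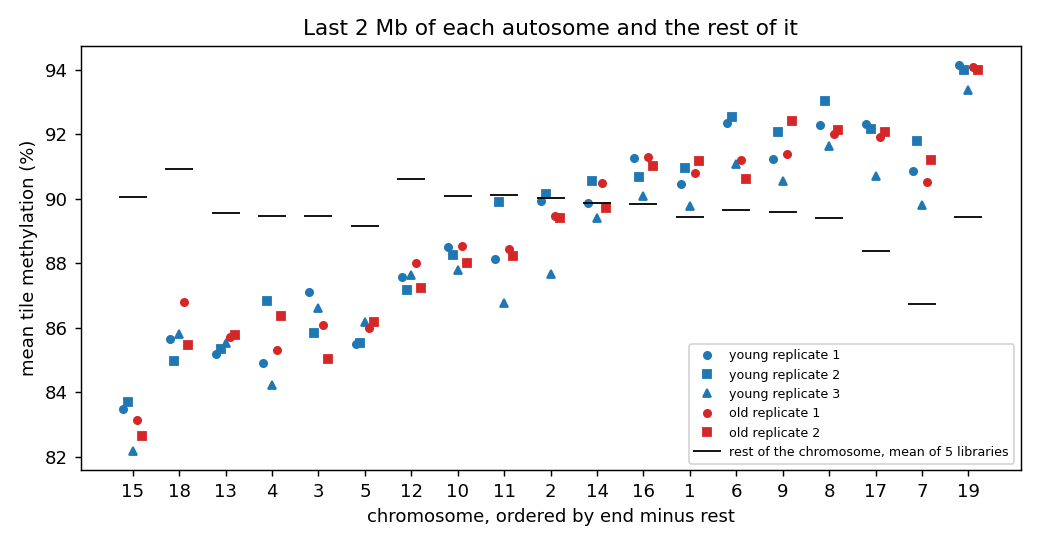
Mean tile methylation (%) in the last 2 Mb of each autosome, 1 point per library (blue young, red old), with a black bar for the rest of that chromosome (mean of 5 libraries); chromosomes are ordered by the difference. Chromosome 15 lies farthest below its bar, at 83.0% against 90.1%, and chromosome 19 farthest above, at 93.9% against 89.4%.

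The end of chromosome 15 (15:101943546-103943545), which holds the Hoxc homeobox cluster and part of the type II keratin genes, was the least methylated. Its 117 tiles averaged 83.5%, 83.7% and 82.2% in young and 83.1% and 82.6% in old sperm. The rest of chromosome 15 read 89.5% to 90.4% across libraries, so that no library of the end came near it, and the difference was -7.03 points (SD 0.336, n = 5). It ranked second from the lowest of 51 windows of 2 Mb on the chromosome. Of its tiles 29 lay under 80% and 6 under 20%, and among the 111 tiles at 20% or more the difference was still -3.61 points (SD 0.431).

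Methylation along this end was lowest in the 500-kb step that contains Hotair and the Hoxc genes from Hoxc10 outwards. There 20 tiles averaged 76.8%, from 73.2% in young replicate 3 to 80.4% in young replicate 2. The outermost 500 kb averaged 81.6% over 28 tiles, and the innermost, from 1.5 to 2 Mb, averaged 86.3% over 38 tiles.

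The end of chromosome 18 (18:88601644-90601643) was low without any unmethylated tile. Its 104 tiles averaged 85.7%, 85.0% and 85.8% in young and 86.8% and 85.5% in old sperm, against 90.1% to 91.4% in the rest of the chromosome, a difference of -5.17 points (SD 0.905, n = 5). It ranked second from the lowest of 44 windows. None of its tiles lay under 20%, but 27 (26.0%) lay between 20% and 80%, against 8.04% of tiles in the rest of the chromosome. Most of those, 23 of 27, lay between genes, in an end that holds only 8 annotated genes. The 55 tiles between genes averaged 81.7%, a difference of -9.31 points from such tiles elsewhere on chromosome 18 (SD 1.05). Levels were lowest in the outermost 500 kb, at 80.2% over 22 tiles, and reached 90.8% between 1 and 1.5 Mb.

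The end of chromosome 13 (13:118320141-120320140) averaged 85.2%, 85.3% and 85.5% in young and 85.7% and 85.8% in old sperm over 129 tiles, -4.05 points from the rest of the chromosome (SD 0.389). It includes 5 tiles under 20%, around Fgf10, Paip1 and Hmgcs1. Among tiles at 20% or more, at the end and in the rest, its difference was -1.85 points (SD 0.450). Other ends lower than the rest in every library were those of chromosomes 4 (-3.92 points), 3 (-3.35), 5 (-3.27), 12 (-3.08), 10 (-1.88), 11 (-1.81) and 2 (-0.717). Among tiles at 20% or more, the difference was -0.336 points (SD 0.818) on chromosome 4 and -0.578 (SD 0.584) on chromosome 11. Among tiles at 80% or more it was above 0 on chromosomes 4 (0.182), 5 (0.538) and 11 (0.662). On chromosome 3 the low value did not come from unmethylated tiles alone, since the share of tiles at 95% or more was 22.5% at its end and 42.9% in the rest. On chromosome 10, whose end carries a large array of olfactory receptor genes, no tile of the end lay under 20%. Its share at 95% or more was 20.4%, against 49.2% in the rest.

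Chromosome 19 had the most methylated end. Its 69 tiles averaged 94.1%, 93.98% and 93.4% in young and 94.07% and 93.98% in old sperm, 4.47 points above the rest of the chromosome (SD 0.194, n = 5). It ranked 28 of 29 windows from the lowest, with 45 of 69 tiles (65.2%) at 95% or more. The ends of chromosomes 7 (4.11 points), 17 (3.44), 8 (2.83), 9 (1.94), 6 (1.90), 1 (1.20) and 16 (1.02) were also above their chromosome in every library. The chromosome 17 end is nearly free of genes, with 93.1% of its tiles between genes, and read 91.6% there, 4.15 points above such tiles elsewhere on the chromosome (SD 0.622). The gene-poor ends of chromosomes 17 and 18 thus lay on opposite sides of their chromosomes. The end of chromosome 6 rests on 28 tiles and had 0.793 times the CpG coverage of the rest, and the part of that in its value was not tested.

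Approach to the telomere brought no steady decline. Averaged over the 19 ends in steps of 250 kb, the outermost step (189 tiles) read 86.7%, 86.0% and 87.4% in young and 87.3% and 86.7% in old sperm, with a mean of 86.8%. The 8 steps within the last 2 Mb ranged from 86.8% to 90.3%. Every step of the outer 1 Mb, at 86.8% to 88.3%, lay below every step from 1 to 2 Mb, at 88.4% to 90.3%. The end minus rest difference was -2.09 points for the last 1 Mb, -1.26 for the last 2 Mb and -1.03 for the last 5 Mb. The 32 steps from 2 to 10 Mb ranged from 86.0% to 91.5%, and 2 of them lay below the outermost step. The outermost step is therefore among the low values of this profile, and not outside its range.

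**Figure D4:**
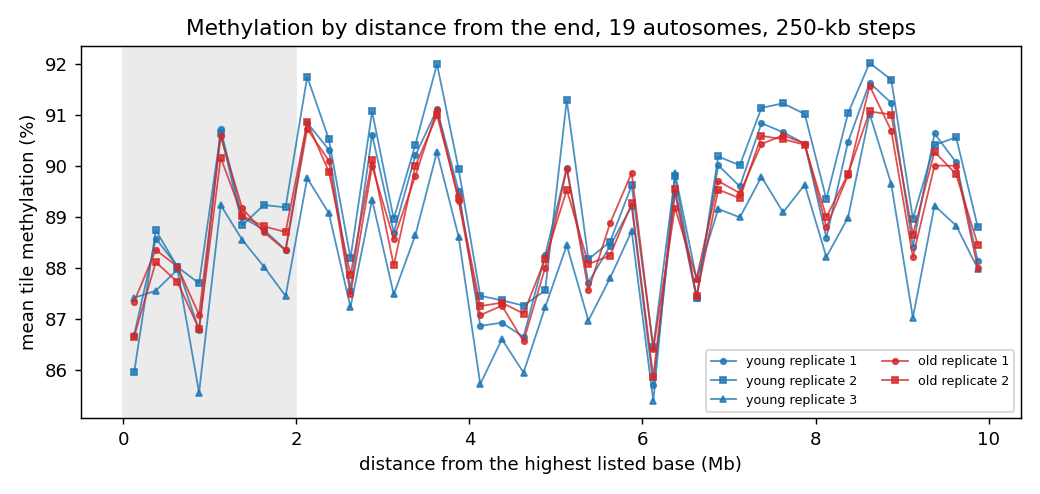
Mean tile methylation (%) against the distance from the highest listed base (Mb), in 250-kb steps pooled over 19 autosomes, 1 line per library (blue young, red old); the shaded band is the last 2 Mb. The lines of the 5 libraries run near each other between 85.4% and 92.0%, and the outermost step has a mean of 86.8%.

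The tile nearest to each telomere was usually well methylated. These 19 terminal tiles lay a median of 29.6 kb from the last listed base and up to 336 kb from it on chromosome 9. Pooled over libraries, their levels ran from 53.3% to 98.0% with a median of 87.2%, and 17 of 19 stood at 80% or more. The lowest was that of chromosome 15, 38689 bp from Mucl2, at 57.4%, 46.3% and 62.8% in young and 45.5% and 51.1% in old sperm, with overlapping groups. The terminal tile of chromosome 14, beyond Fgf14, read 71.7%, 69.4% and 76.7% in young and 76.9% and 79.8% in old sperm.

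The opposite ends of the same chromosomes, next to the centromere, were less methylated than the subtelomeric ends. The first 2 Mb read 85.8%, 86.0% and 85.7% in young and 86.5% and 86.3% in old sperm. The subtelomeric ends were higher by 2.59, 2.62 and 2.01 points in young and by 1.99 and 2.04 points in old sperm, a mean of 2.25 points (SD 0.325, n = 5, exact sign-flip permutation test, p = 0.062, the smallest possible). That margin was 4.88 for 1 Mb at both ends, 0.374 for 5 Mb, 3.66 with a minimum of 20 reads and 1.39 with 5.

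Tiles under 20% within the ends lay mostly in or next to genes. These 22 tiles came from 8 chromosomes, 16 of them overlapped an annotated gene, and 19 lay within 1000 bp of one. Of all subtelomeric tiles, 53.5% lay between genes and farther than that from them. The lowest, 13:118713001-118714000, lies 699 bp from Fgf10 and had no methylated read among 272 in all libraries, which allows a share of up to 1.10% (3 counts, counting error only). The next tile, 13:118714001-118715000, overlaps Fgf10 and covers 21 CpGs, at 0.563%, 0.668% and 1.39% in young and 2.31% and 0.902% in old sperm. At the NAD kinase gene Nadk (4:155562001-155564000), the neighbouring tiles read 0% to 1.27% and 0.216% to 0.514% across libraries. Tiles of Fry (5:150195001-150196000), whose protein organises microtubules, and of Nploc4 (11:120437001-120438000) read 0% to 1.61% and 0% to 2.65%.

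A tile shared by Srsf11, a splicing factor, and Lrrc40 (3:158036001-158037000) read 1.04% to 3.85%. On chromosome 15 a tile 446 bp from Gm30528 (15:103061001-103062000) read 0% to 4.72%, and a tile of the phosphodiesterase gene Pde1b (15:103514001-103515000) read 3.47% to 7.84%. The tile of Fgf14 (14:124677001-124678000), a modulator of neuronal sodium channels, read 8.44%, 2.27% and 10.6% in young and 9.20% and 0.637% in old sperm. All 10 tiles described here had an adjusted p of 1 between ages in the quasi-binomial model with Benjamini-Hochberg adjustment.

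The age comparison asked whether subtelomeric methylation in sperm changes between 2 and 18 months, and no tile passed the test. For single ends, the exact permutation test of 3 against 2 libraries cannot give a p under 0.1, so no end could pass. The mean of the ends was 88.2% ± 0.433 at 2 months (SD, n = 3) and 88.4% ± 0.130 at 18 months (SD, n = 2), with old higher by 0.143 points (two-sided exact permutation test over 10 splits, p = 0.9; the smallest p possible is 0.1). Without young replicate 3, the lowest library, it was -0.101 points. The end minus rest contrast differed between ages by -0.0355 points (exact permutation test, p = 0.6). By position, old minus young was 0.199 points near gene ends, 0.0812 inside genes and 0.180 between genes.

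Among single chromosomes, the old mean was higher at 15 of 19 ends. The rest of the autosomes was also higher in old sperm, by 0.179 points, against 0.143 for the ends. By windows of 2 Mb, the median difference was 0.177 points at the ends and 0.119 elsewhere. Chromosome 13 was the only end at which the old and young libraries did not overlap (1 of 19, higher in old, by 0.405 points, exact permutation test, p = 0.2, adjusted p = 1 over 19 ends). Among the other 1186 windows of 2 Mb, 9.36% had groups that did not overlap, 8.68% higher and 0.675% lower in old sperm. Young replicate 3 was the lowest library at 13 of 19 ends and young replicate 2 the highest at 8.

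Over the 1575 subtelomeric tiles, the quasi-binomial model fitted on all tiles, with dispersion moderated as in limma and Benjamini-Hochberg adjustment, called 0 (0% of all tiles). The smallest adjusted p was 0.403. At an unadjusted p under 0.05 stood 43 tiles (2.73%), 25 higher and 18 lower in old sperm, against a background of 2.77% of all tiles, 1.66% higher and 1.11% lower. limma also called 0, with 50 tiles (3.17%) at an unadjusted p under 0.05, against 3.87% of all tiles. A plain binomial model, which leaves replicate variation out, called 3 tiles of the ends (0.190%), in Lars2 and Dnah11 (higher) and Pard3 (lower), against 0.261% of all tiles. The groups did not overlap in 143 tiles higher (9.08%) and 124 lower (7.87%) in old sperm, and over all tiles the shares were 9.26% and 7.8%. The ends thus showed shares near the background in each of these counts.

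The median difference over subtelomeric tiles was 0.108 points, against 0.152 over all tiles, and 16 tiles (1.02%) differed by 10 points or more, against 1.07%. The median SD among young libraries in a tile was 2.28 points. The mean absolute difference between 2 libraries over subtelomeric tiles ran from 2.97 points between the old libraries to 4.55 between young replicates 2 and 3.

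The tile with the smallest p overlapped Tmem267 and 3110070M22Rik (13:119488001-119489000), the CpG-dense locus printed above. Its 34 CpGs below the upper coverage limit read 82.01%, 81.4% and 83.6% in young and 88.1% and 90.1% in old sperm, so the groups did not overlap and old was higher by 6.77 points (p = 1.79e-05, adjusted p = 0.403, quasi-binomial model with Benjamini-Hochberg adjustment). Reads over these CpGs were 1016 to 1445 in young and 1802 to 2315 in old libraries, so depth moved with the level, and its part in the result was not tested. Without young replicate 3 the difference was 7.39 points with an adjusted p of 0.0270 in the same model, and it stayed uncalled only through the minimum of 10 points; with any other library left out the adjusted p was 0.151 to 1. With the deeper CpGs of the tile kept, 84 CpGs read 97.6%, 97.7% and 98.3% in young and 98.2% and 98.3% in old sperm, the groups overlapped, and the difference was 0.356 points (exact permutation test, p = 0.4).

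Of the other tiles higher in old sperm, one 14492 bp from Olfr782, an olfactory receptor (10:129366001-129367000), read 82.02%, 81.5% and 80.7% in young and 86.9% and 85.5% in old sperm. A tile 59308 bp from Ttc34 (4:154777001-154778000) read 85.6%, 86.0% and 84.1%, then 90.5% and 90.9%; with its 1 CpG above the upper coverage limit kept, the difference of 5.48 points became 2.51. A tile in the predicted gene Gm18280 (18:90486001-90487000) read 98.4%, 95.3% and 97.7%, then 100% in both old libraries. In these 3 tiles the groups did not overlap, which their choice by a small p between ages makes likely. A tile in Lars2, the mitochondrial leucyl-tRNA synthetase gene (9:123461001-123462000), read 27.4%, 33.9% and 27.8% in young and 31.2% and 54.5% in old sperm, so its difference of 13.1 points rests on old replicate 2 and was 1.47 points without it. That library also had the most reads in the tile, 255 against 108 to 179. These values cover 3 CpGs, and with the 7 CpGs above the upper coverage limit kept, the difference was 16.1 points. Those 7 CpGs read lowest in young replicate 3, at 18.0% and 140 reads per CpG. They read highest in old replicate 2, at 52.4% and 326 reads per CpG. The part of depth in the result was not tested.

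Among the tiles lower in old sperm, one 57527 bp from Nnt, the mitochondrial nicotinamide nucleotide transhydrogenase gene (13:119277001-119278000), read 87.8%, 88.2% and 87.6% in young and 81.97% and 84.3% in old sperm. A tile in Pard3, a cell polarity gene (8:127318001-127319000), read 98.2%, 96.1% and 93.2%, then 85.4% and 86.1%, a difference of -10.1 points. A tile in Ikzf4, a zinc finger gene of the Ikaros family (10:128637001-128638000), was intermediate, at 56.9%, 53.3% and 64.9%, then 46.7% and 50.5%, a difference of -9.76 points that was -6.50 without young replicate 3. The terminal tile of chromosome 5, 81793 bp from Rfc3 (5:151733001-151734000), read 88.2%, 84.2% and 85.0%, then 81.1% and 77.8%. A tile 1229 bp from Olfr791 (10:129524001-129525000) read 90.1%, 96.8% and 90.8%, then 80.5% and 85.7%. The groups did not overlap in any of these 5 tiles, which were likewise chosen by p. Each had an adjusted p of 1, as had the 4 higher tiles named after Tmem267.

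**Figure D5:**
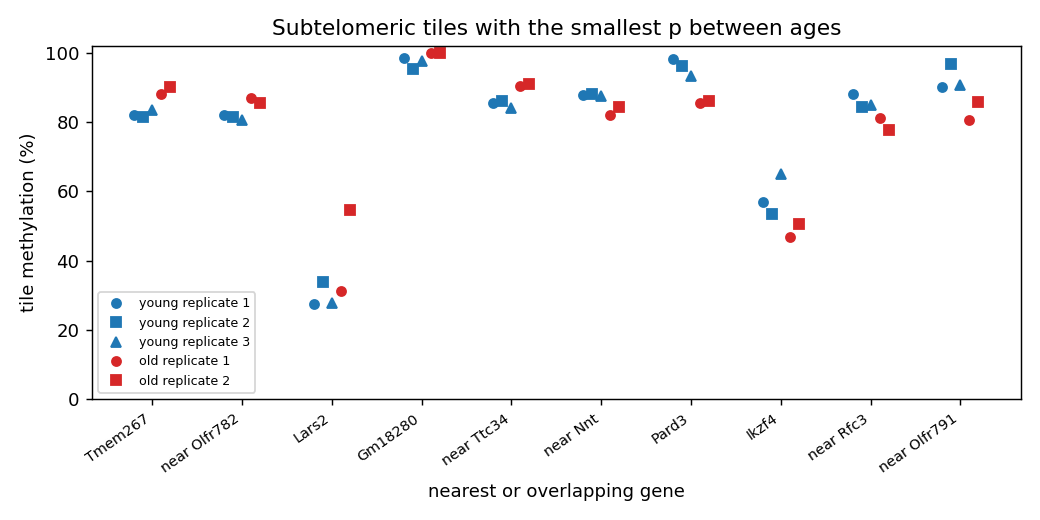
Methylation (%) in each library (blue young, red old) of the 10 subtelomeric tiles named for the smallest p, first 5 with higher and then 5 with lower levels in old sperm, labelled by the overlapping or nearest gene. In 9 of the 10 the colours do not overlap, which choosing the tiles by p makes likely. At Lars2, old replicate 2 at 54.5% stands apart from the other 4 libraries, and no tile passed the adjusted threshold.

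Genes lying wholly within the ends were described by the mean of the tiles in their bodies. Of 707 such genes, 501 of them protein-coding, 242 held a tile. Their median level was 93.5%, and 138 had a higher and 104 a lower mean in old sperm, with a median difference of 0.227 points. No tile of theirs was called, so the differences that follow are values and not changes.

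The Hoxc cluster at the end of chromosome 15 encodes homeodomain factors that pattern the body axis, and it includes 2 of the 6 tiles under 20% at that end. All 10 listed members lie in the end and 4 were measured, 2 higher and 2 lower in old sperm. Hoxc13 read 17.9%, 12.2% and 16.7% in young and 14.3% and 10.9% in old sperm, and Hoxc10 read 15.4%, 17.1% and 16.3%, then 20.5% and 17.3%. Hoxc8, over 3 tiles, was intermediate at 67.1%, 72.0% and 61.0%, then 69.5% and 63.6%. The antisense lncRNA gene Hotair read 81.4%, 87.3% and 64.3%, then 87.3% and 73.1%. Their median of 42.0% stood below the 93.5% of all measured genes of the ends.

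On chromosome 7 the end carries the outer part of the Kcnq1 imprinted domain and the Fgf and cyclin D1 locus. Of the imprinted domain, 4 of 10 genes in the end were measured, 2 higher and 2 lower. Their levels ran from 83.8% to 96.3%, with a median difference of -0.322 points. Slc22a18, an organic cation transporter gene, read 95.6%, 95.4% and 97.0% in young and 94.9% and 95.5% in old sperm. Of the Fgf and cyclin D1 locus, 5 of 12 genes were measured, 4 higher and 1 lower, with a median difference of 0.530 points. Shank2, a postsynaptic scaffold gene with 10 tiles, read 94.5%, 95.2% and 92.5%, then 94.3% and 94.7%. Tpcn2 averaged 57.7%, 54.2% and 53.3%, then 53.3% and 55.6%, over its promoter-side tile and 1 other.

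At the end of chromosome 5, all 9 listed genes in the end were measured, 5 higher and 4 lower in old sperm, over 58 tiles, with a median difference of 0.470 points. Fry, with 22 tiles, read 86.9%, 86.9% and 86.2% in young and 85.4% and 85.5% in old sperm, a difference of -1.20 points. Stard13, with 15 tiles, read 85.8%, 85.0% and 86.2%, then 85.5% and 86.8%. Pds5b, a cohesin regulator with 11 tiles, read 93.8%, 96.2% and 93.3%, then 95.2% and 95.4%. Kl, the gene of the ageing-related co-receptor Klotho, was not among the genes with most tiles and was added after its values were seen: its single tile read 98.5%, 98.3% and 99.4%, then 97.0% and 96.4%.

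Of a list of 31 neuronal and signalling genes named for the end of chromosome 2, 29 lay in the end and 12 were measured, 6 higher and 6 lower, with a median level of 93.0%. Zbtb46, a zinc finger factor of dendritic cells with 6 tiles, read 93.5%, 94.8% and 89.6% in young and 94.01% and 90.7% in old sperm. Myt1, a neural zinc finger factor with 3 tiles, read 87.1%, 88.2% and 88.3%, then 88.0% and 88.3%. Rtel1, a helicase that unwinds telomere loops, was the only one of 22 listed telomere maintenance genes to lie in an end. It read 99.0%, 97.7% and 97.0% in young and 97.3% and 96.6% in old sperm over 2 tiles, with overlapping groups.

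Other lists were thinly covered. On chromosome 16, Dscam, a neuronal adhesion gene with 13 tiles, read 94.5%, 93.9% and 90.3% in young and 93.5% and 93.3% in old sperm, and 3 of 7 genes were measured, all 3 with higher means. On chromosome 11, 6 of 22 were measured, 3 higher and 3 lower; Tbcd, a tubulin cofactor with 6 tiles, read 93.5%, 96.5% and 91.2%, then 93.96% and 94.6%. On chromosome 4, 4 of 21 were measured, 3 higher and 1 lower; Gabrd, a GABA receptor subunit, was intermediate at 58.2%, 63.2% and 67.4%, then 68.1% and 66.7%. Of 5 complement receptor genes and their neighbours on chromosome 1, 4 were measured, 1 higher and 3 lower, and Cd46, a complement regulator, read 92.4%, 96.0% and 92.6%, then 91.2% and 94.2%.

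The receptor families at the ends were mostly unmeasured. Of 58 olfactory receptor genes 3 were measured, 1 higher and 2 lower, at 85.4% to 94.5%. Of 6 vomeronasal receptor genes 3 were measured, 2 higher and 1 lower, and Vmn2r87 with 5 tiles read 91.1%, 93.3% and 92.4% in young and 91.5% and 92.6% in old sperm. None of the 8 chemokine receptor genes at the end of chromosome 9 and 1 of 3 type II keratin genes (Krt78, 95.7% to 98.5% across libraries) held a tile.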

How the data were processed

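The submitters' processing notes name methylKit 1.4.0, Bismark 0.16.3 and Trim Galore 0.4.3, with mm10 (GRCm38); settings were not given in the sources used here. Per the file headers, the deposited values are the coverage of each cytosine, a read count by strand, and the percent of its reads that were methylated or unmethylated. The lowest listed coverage was 5 reads. Listed reads totalled 67774094 to 97769462 per library.

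Percentages were turned back into counts and strands were merged. CpGs reaching 10 reads in every library, and in no library past its 99.9th coverage percentile, were pooled into 1000-bp tiles holding 3 or more. The upper limit, not part of the definition of the ends, was kept from the processing of the whole genome; without it the ends held 1599 tiles. A tile belongs to an end by its start. Levels of regions are unweighted means over tiles.

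Tiles were tested on all chromosomes with a quasi-binomial logistic model, dispersion moderated as in limma's squeezeVar and not under 1, and p-values adjusted by Benjamini-Hochberg; called tiles had an adjusted p under 0.05 and at least 10 points between ages. The model was tested on simulated data. Single values were compared with exact permutation tests. Gene positions and promoters came from RefSeq tables of GRCm38.p6. Tools were R 4.3.3 with limma 3.58.1 and Python 3.11.15 with matplotlib 3.10.9, scipy 1.17.1, pandas 2.3.3 and numpy 2.4.6.

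Named tiles were those with the 5 smallest p in each direction between ages, the terminal tiles and the 10 least methylated (at most 2 per chromosome); named genes were up to 4 per list with the most tiles. The members and lists were chosen with earlier results of these data known. The promoter windows, every listed CpG, each chromosome left out and tiles at 80% or more were added after seeing the data. Alternatives covered coverage, tile width, end length, weighting, the model and each library left out. Unconverted cytosines count as methylated, and the limit given for 0 reads covers counting error only.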

Additional observations from a re-analysis of the deposited data

How the results depend on the processing

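The end minus rest difference of single chromosomes ran from -7.03 points (chromosome 15) to 4.47 (chromosome 19). The subtelomeric minus rest difference over all ends (-1.26 points) was below 0 under all 37 alternatives. It was -1.32 with a minimum of 20 reads, -1.75 and -1.42 with tiles of 500 and 2000 bp, -2.09 and -1.03 for the last 1 and 5 Mb, -0.696 with chromosomes weighing the same, -0.585 away from gene ends, -1.41 over every listed CpG and -0.690 among tiles at 80% or more. Leaving out 1 chromosome gave -1.55 (without chromosome 17) to -0.812 (without chromosome 15), and 1 library -1.27 to -1.24. Its difference between ages was -0.126 with 20 reads, 0.0154 with 5, -0.0843 for the last 1 Mb and -0.0818 to 0.0108 with 1 library left out. The margin over the centromere-proximal ends was 3.66 with 20 reads, 1.39 with 5, 1.60 with 2000-bp tiles, 4.88 and 0.374 for 1 and 5 Mb. The outermost step was 86.1% with 500-bp tiles. The cause of these shifts was not tested.

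The old minus young difference of the ends ranged from -0.101 to 0.312 points over 16 alternatives; the exact permutation test cannot go below p = 0.1 with these libraries, and the blocked value has no test. Called tiles numbered 0 in every alternative but the binomial model without replicate spread, which called 3 (0.190%; Lars2 and Dnah11 higher, Pard3 lower) against 0.261% of all tiles. The labels give same-numbered libraries no link beyond the number. Their deviations correlated at 0.0624 and -0.00213. The deviations of the 2 old libraries mirror each other, so these values can neither show nor exclude a pairing. With the replicate number as a block, 0 tiles were called, the ends differed by -0.101 points and the end minus rest contrast by -0.0141. Depth limits single tiles, and only 7.38% of listed CpGs of the ends were measured.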

Other observations

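In the ends, 184 of 12100 CpGs lay above the upper coverage limit, on 16 chromosomes, and 60 of them were on chromosome 13, of which 50 lay in the Tmem267 and 3110070M22Rik tile. Over all autosomes 9523 of 946600 CpGs did so.

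The Gm52026 promoter window at the end of chromosome 13, which also holds TTAGGG on one of its strands, read 25.9%, 34.2% and 30.5% in young and 30.6% and 31.1% in old sperm over 5 CpGs. The promoter window of Pde1b, whose tile in the same gene was nearly unmethylated, read 51.9%, 38.1% and 50% in young and 41.2% and 70.6% in old sperm over 2 CpGs and 17 to 38 reads.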
